A study of Mus musculus with 7 samples.

Results

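The allelic use and the level of 9 autosomal imprinted genes were described in chromatin-associated RNA from undifferentiated mouse embryonic stem cells (mESCs). The genes were picked by name from the 22556 genes counted, as imprinted genes of chromosomes 6, 10, 11 and 17. They were Peg10, Sgce and Mest on chromosome 6, Plagl1 on chromosome 10, Grb10, Zrsr1 and Commd1 on chromosome 11, and Igf2r and Airn on chromosome 17. An imprinted gene is one that somatic tissues transcribe mainly or wholly from the copy inherited from 1 parent, because a stretch of DNA nearby was methylated in the egg or the sperm and kept that mark in the embryo. In the mouse, Peg10, Sgce, Mest, Plagl1, Zrsr1 and Airn are known for use of the paternal copy, and Igf2r and, in most tissues, Grb10 for use of the maternal copy, while the imprint of Commd1 is partial and depends on the tissue. Several of these imprints, that of Igf2r among them, are known to take effect only when embryonic cells differentiate.

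The mESCs were female hybrids of 129S, a domesticus strain (Dom), and CAST/EiJ (Cast), so that a sequence difference lets a fragment be assigned to a Cast or a Dom allele. All were grown undifferentiated and treated with 1 µg/mL doxycycline for 10 days to switch on Xist, the RNA that silences an X chromosome. In the line iXist-ChrX-Dom (n = 4 libraries, called the Dom line) the doxycycline-driven promoter sits in front of the Dom copy of Xist, and in iXist-ChrX-Cast (n = 3, the Cast line) in front of the Cast copy. Both lines were made from the same hybrid line and each is a single clone, the 9 genes lie outside the X chromosome, and no uninduced library or reciprocal cross was analysed here. Strain and parent of origin therefore cannot be told apart in these data, and neither can line and clone.

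The libraries held 14877384 to 24309806 counted fragments, of which 44.2 to 46.4% were assigned to an allele. For replicates 3 and 4 of the Dom line the description field reads d1 against the 10 days of the titles, which were used, and in the Cast line the files of replicates 1 and 2 are named for a clone spelled 1 character away from their labels. Replicates 1 and 2 follow a different file naming scheme from replicates 3 and 4, and the split is called the replicate set here, although the labels state no batch. The allele assignment was checked on Xist, which was 99.9% Dom in every Dom-line library and at most 6.0% Dom in the Cast line. Markers of mESCs were plentiful, Esrrb at 394.0 to 538.6 counts scaled to a common library size (CPM) and Nanog at 54.5 to 83.8 CPM. The cells had been maintained on mouse fibroblast feeders. Per the paper's methods, feeders were let attach first before experiments, and mESCs still in suspension were moved to dishes without feeders for harvest. The 18 fibroblast markers examined summed to 177.7 to 245.1 CPM in the Dom line and 178.7 to 219.8 CPM in the Cast line. Lum lay at 0 to 0.20 CPM, Col1a1 at 3.59 to 8.24 CPM and Vim at 45.0 to 67.4 CPM.

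The genes lay in 6 places on the mm10 genome, given here as the files give them. Peg10, a retrotransposon-derived gene needed in the placenta, spanned chr6:4747305-4760516 on the plus strand, and Sgce, which encodes epsilon-sarcoglycan, spanned chr6:4674349-4747204 on the minus strand, so that the pair ran in opposite directions from starts 101 bases apart. Mest, a hydrolase-family gene of mesoderm, spanned chr6:30733505-30748466 on the plus strand and shared its last 914 bases with Copg2 on the other strand. Plagl1, a zinc finger transcription factor also called Zac1, spanned chr10:13090787-13131695 on the plus strand, and Grb10, an adaptor that dampens insulin receptor signalling, spanned chr11:11930498-12037420 on the minus strand. Zrsr1, an intronless retrogene of a splicing factor, spanned chr11:22972004-22976496 on the plus strand and lay wholly within intron 1 of Commd1, a gene of copper and NF-kB regulation that spanned chr11:22899727-22982284 on the minus strand. Igf2r, the receptor that takes up and degrades insulin-like growth factor 2, spanned chr17:12682405-12769706 on the minus strand. The noncoding RNA Airn spanned chr17:12741310-12859884 on the plus strand, started within intron 2 of Igf2r and overlapped it over 28397 bases, 32.5% of Igf2r. The authors counted by strand, so that the fragments of these overlapping pairs were kept apart.

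Upstream sequences are shown for Mest, whose lines did not overlap in allele share, Plagl1 with its Dom excess, and the opposed Igf2r and Airn. The sequences were picked for these traits and not by rank, since Commd1 deviated more from the autosomal median than Igf2r and Airn. They come from RefSeq on GRCm38.p6, up to 250 bases before a start, and those of Plagl1 and Airn were ended just before the gene in the files. RefSeq has 3 windows for Mest, and the one shown precedes a start inside the span given above. The letters TGCCGC, the core that the imprint-protecting zinc finger protein ZFP57 is known to bind when methylated, and its reverse complement GCGGCA are in capitals wherever either occurred.
Mest, chr6:30737800-30738049, plus strand: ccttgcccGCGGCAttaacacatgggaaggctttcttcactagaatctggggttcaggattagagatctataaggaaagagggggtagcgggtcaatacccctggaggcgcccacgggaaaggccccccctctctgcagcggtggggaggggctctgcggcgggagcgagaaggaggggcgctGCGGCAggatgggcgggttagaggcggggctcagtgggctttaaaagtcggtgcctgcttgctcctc
Plagl1, chr10:13090582-13090786, plus strand: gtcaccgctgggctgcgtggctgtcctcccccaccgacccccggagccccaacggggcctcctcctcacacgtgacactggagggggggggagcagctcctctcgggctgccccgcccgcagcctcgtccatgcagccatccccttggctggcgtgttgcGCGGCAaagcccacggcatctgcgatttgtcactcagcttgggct
Igf2r, chr17:12769707-12769956, minus strand: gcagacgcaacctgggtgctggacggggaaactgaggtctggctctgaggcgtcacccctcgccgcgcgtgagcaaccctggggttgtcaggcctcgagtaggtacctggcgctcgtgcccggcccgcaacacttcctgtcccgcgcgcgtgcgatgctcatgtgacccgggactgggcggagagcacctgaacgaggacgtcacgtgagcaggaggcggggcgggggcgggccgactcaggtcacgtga
Airn, chr17:12741061-12741309, plus strand: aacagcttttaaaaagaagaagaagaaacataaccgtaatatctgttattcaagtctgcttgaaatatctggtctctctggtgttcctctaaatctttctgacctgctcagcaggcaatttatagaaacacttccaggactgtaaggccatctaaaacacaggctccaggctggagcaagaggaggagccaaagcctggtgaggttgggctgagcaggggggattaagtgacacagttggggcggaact
RefSeq gave such windows for 7 of the 9 genes, and Peg10 and Sgce had none. The hexamer occurred 2 times in the Mest window shown, 0 times in the one before the outermost Mest start, and 1 time in that of Plagl1. It had no match in the windows of Igf2r and Airn, nor in those of Grb10, Zrsr1 and Commd1, which are not shown. Of the 11 windows of these 7 genes, 3 held it, among them overlapping windows of Mest. Of all 32851 windows of 250 bases, 8.68% held it on either strand. The count of CG pairs in 250 bases was 27 for Igf2r, 19 for Plagl1, 14 for Mest and 2 for Airn, against a median of 6 over all windows. These letter counts are descriptions of sequence and were not tested against the expression values.

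Allelic use was examined first. The Cast share is the percentage of allele-assigned fragments of a gene that came from the Cast copy. Full use of a single parental copy would put it near 0 or near 100%. Over the 9 genes and 7 libraries the 63 Cast shares lay between 21.4 and 62.6%, and the less used allele of a gene still gave at least 21 fragments in every library. None of the 9 genes drew 90% or more of its fragments from the same allele in every library. Among the 12500 autosomal genes with at least 10 allelic fragments in more than 80% of libraries, 84 did so (0.672%), 68 for Dom (0.544%) and 16 for Cast (0.128%). All 9 genes passed this minimum, with 47 to 1357 allelic fragments each. For X-linked genes the paper filtered out strongly monoallelic ones in uninduced cells, as probable artifacts of wrongly annotated polymorphisms. Whether the 84 genes use a single copy was not tested. A share is an average over the cells of a library, and use of both copies in each cell cannot be told apart from a mixture of cells that each use a single copy. It also sums all transcripts of a gene, and RefSeq has several starts for Mest, Grb10 and Commd1. Transcripts that differ in allelic use cannot be told apart in it.

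**Figure D1:**
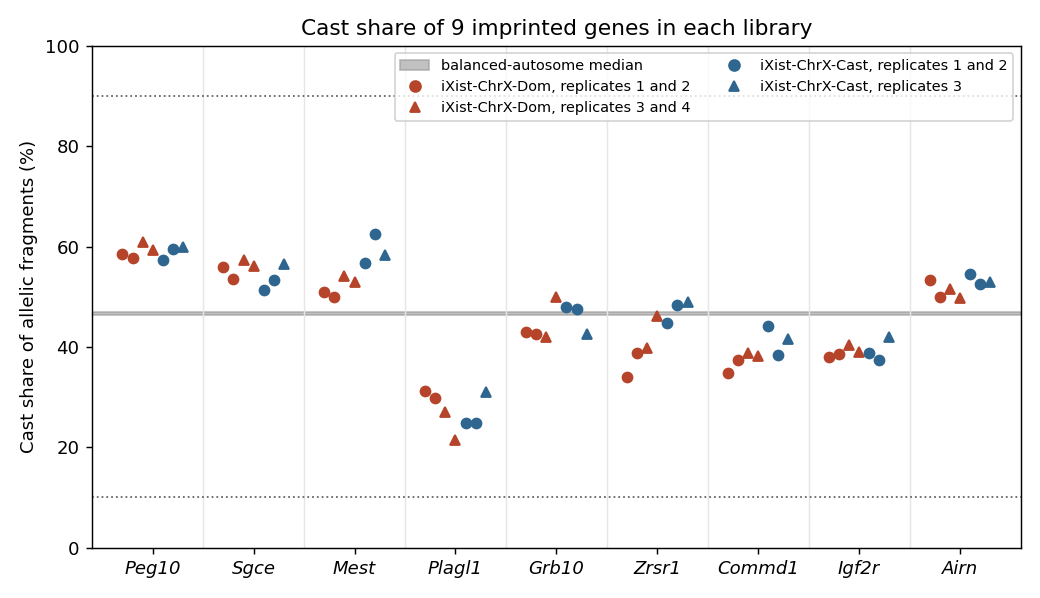
Cast share (%) of each gene in each library, by line (colour) and replicate set (shape), with dotted lines at 10 and 90% and a grey band at the median of balanced autosomes, 46.3 to 46.9%. All points lie between 21.4 and 62.6%, Plagl1 lies lowest, and the Mest points of the lines do not overlap, as for 20.5% of all genes tested.

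The shares were placed against those of other autosomal genes. The median Cast share of 9211 genes on balanced autosomes was 46.3 to 46.9% in each library, somewhat below an even 50%. Averaged over 7 libraries, the quartiles of the autosomal genes were 42.3 and 53.2% and the 5th and 95th percentiles 26.8 and 66.7%, while the 9 imprinted genes lay between 27.2% (Plagl1) and 59.0% (Peg10), with a median of 45.1%. Plagl1 deviated most from the autosomal median among the 9, and 10.4% of the genes tested deviated more than it did. For Peg10 this figure was 22.8%, and for the other 7 it lay between 35.2% (Mest) and 84.5% (Grb10).

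**Figure D2:**
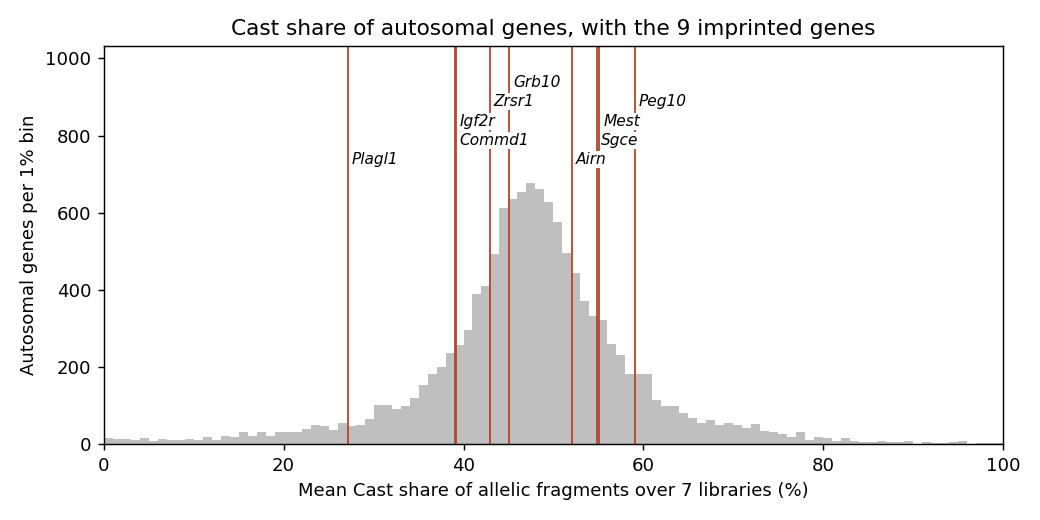
Number of autosomal genes in each 1% bin of the mean Cast share over 7 libraries (grey), with red lines at the 9 imprinted genes. The lines lie from 27.2 to 59.0%, within the body of the distribution.

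To ask whether the alleles of a gene were used unequally, its Cast share was tested against the autosomal median of the library in each line with limma. Values are differences of log2 odds, the log2 of the Cast to Dom ratio, called at an adjusted p under 0.05 over all 12500 genes. In the Dom line 8 of the 9 genes were called, where 49.9% of all genes tested were, 4 towards Cast (27.6% of all genes) and 4 towards Dom (22.3%). In the Cast line 7 were called, where 46.1% of all genes were, 4 towards Cast (26.5%) and 3 towards Dom (19.6%). The median absolute difference of the 9 genes was 0.44 in the Dom line and 0.40 in the Cast line, beside 0.31 and 0.34 over all genes tested. Neither the share of calls nor the size of the differences is read as particular to imprinted genes. The 12500 genes include those on autosomes left out of the median as not balanced, whereas the 9 genes all lie on balanced autosomes. Rates for balanced autosomes alone are not given here, so the comparison with all genes is a rough guide only.

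Plagl1 showed the largest departure among the 9, with the Dom copy giving most of its RNA. Its Cast share was 31.2, 29.9, 27.1 and 21.4% in Dom-line replicates 1 to 4 and 24.8, 24.9 and 31.0% in Cast-line replicates 1 to 3. The lines overlapped, and Dom exceeded Cast in every library. The log2 odds lay 1.19 below the autosomal median in the Dom line (-1.19 ± 0.13, SE, limma adjusted p = 0.00041) and 1.22 below it in the Cast line (-1.22 ± 0.15, adjusted p = 0.00082). Counting error alone gave Wilson 95% intervals of 16.8 to 26.7% for the lowest library and 27.6 to 35.1% for the highest, and fragments carried no molecular identifiers, so that such intervals cover counting error only. The 17 genes within 2 Mb of Plagl1 had a median Cast share of 46.9 ± 1.75% (SD over libraries) in the Dom line and 47.02 ± 0.79% in the Cast line. The 15 fibroblast markers with enough allelic fragments had pooled Cast shares of 18.6 to 31.5%, and 26.7 to 36.7% without Vim and Col5a2. Their mean shares ran from 8.93% for Col1a2 to 55.3% for Acta2, with 18.5% for Vim, 40.1% for Fbn1 and 41.4% for Col1a1. The part of feeder RNA in the Dom excess of Plagl1 was not tested.

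The divergent neighbours Peg10 and Sgce both leaned towards Cast. The Cast share of Peg10 was 58.6, 57.7, 60.9 and 59.3% in the Dom line and 57.3, 59.5 and 59.9% in the Cast line. That of Sgce was 55.9, 53.6, 57.4 and 56.1% and 51.3, 53.3 and 56.4%. Both stayed above 50% in 7 of 7 libraries, and the lines overlapped for both. The log2 odds of Peg10 rose above the autosomal median by 0.71 ± 0.05 (adjusted p = 6.8e-05) and 0.71 ± 0.06 (adjusted p = 0.00015, limma), those of Sgce by 0.52 ± 0.06 (adjusted p = 0.00063) and 0.40 ± 0.07 (adjusted p = 0.0040). Against an even 50% in place of the autosomal median, the Sgce excess in the Cast line was no longer called (0.21, adjusted p = 0.059), nor was it in replicates 1 and 2 alone (0.34, adjusted p = 0.059). The 14 other genes within 2 Mb of the pair had median Cast shares of 46.5 ± 1.40% and 47.3 ± 0.73% in the respective lines.

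Mest gave the clearest contrast between the lines. Its Cast share was 51.0, 49.9, 54.1 and 53.0% in the Dom line and 56.8, 62.6 and 58.4% in the Cast line. Every Cast-line library lay above every Dom-line library, and the lines did not overlap for 20.5% of all 12500 genes tested either. In the Cast line the log2 odds exceeded the autosomal median by 0.73 ± 0.09 (limma adjusted p = 0.00065) and in the Dom line by 0.31 ± 0.07 (adjusted p = 0.013). The latter was not called against 50% (0.11, adjusted p = 0.23), in replicates 1 and 2 alone (0.22, adjusted p = 0.24), without replicate 3 (0.27, adjusted p = 0.055) or without replicate 4 (0.28, adjusted p = 0.053).

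Igf2r and Airn, which overlap on opposite strands, leaned to opposite alleles. The Cast share of Igf2r was 38.1, 38.5, 40.4 and 38.9% in the Dom line and 38.8, 37.4 and 42.0% in the Cast line. That of Airn was 53.3, 50.0, 51.5 and 49.8% and 54.6, 52.5 and 52.9%. Airn lay above Igf2r in all 7 libraries, by a margin that left no overlap between the genes, and both alleles of each gave at least 127 fragments in every library. The Igf2r log2 odds lay below the autosomal median in both lines (-0.44 ± 0.06, adjusted p = 0.00080, and -0.41 ± 0.06, adjusted p = 0.0023, limma). Those of Airn lay above it (0.26 ± 0.06, adjusted p = 0.0080, and 0.39 ± 0.06, adjusted p = 0.0029), although against 50% in place of the autosomal median Airn was not called in the Dom line (0.07, adjusted p = 0.34), nor was it in replicates 1 and 2 alone (0.29, adjusted p = 0.10). In the 2 Mb around Igf2r, 18 genes had a median Cast share of 44.5 ± 1.67% in the Dom line and 44.5 ± 1.08% in the Cast line.

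Of the chromosome 11 genes, Commd1 and its intronic retrogene Zrsr1 were called towards Dom in the Dom line, and Commd1 alone in the Cast line. Commd1 had Cast shares of 34.9, 37.4, 38.9 and 38.3% in the Dom line and 44.2, 38.5 and 41.5% in the Cast line. Zrsr1 had 33.96, 38.8, 39.7 and 46.3% and 44.7, 48.4 and 48.9%, from only 47 to 106 allelic fragments a library. The Wilson 95% intervals for single Zrsr1 shares were 17.7 to 27.3 percentage points wide, and the lines overlapped for both genes. Commd1 was called towards Dom in both lines (-0.54 ± 0.07, adjusted p = 0.00094, and -0.30 ± 0.08, adjusted p = 0.024, limma), but in the Cast line the call was lost in replicates 1 and 2 alone or without replicate 3 (-0.29 each, adjusted p = 0.16 and 0.083) and without replicate 2 (-0.22, adjusted p = 0.13). Zrsr1 was called towards Dom in the Dom line (-0.40 ± 0.11, adjusted p = 0.025), a call that was lost without replicate 1 (-0.29), 2 (-0.39) or 3 (-0.40), and in the Cast line it was not called (0.05 ± 0.13, adjusted p = 0.80). The 19 other genes within 2 Mb of the pair had a median Cast share of 41.0 ± 0.95% in the Dom line and 44.9 ± 0.81% in the Cast line.

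Grb10 was the gene nearest to the autosomal median. Its Cast share was 43.1, 42.5, 42.1 and 50.0% in the Dom line and 48.1, 47.5 and 42.5% in the Cast line. The difference of log2 odds was -0.13 ± 0.10 (limma adjusted p = 0.34) and -0.03 ± 0.12 (adjusted p = 0.86). Against 50% it was called towards Dom in the Dom line (-0.32, adjusted p = 0.028).

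The lines were then compared for the Cast share, which asks whether the choice of allele differed between the clones. None of the 9 genes was called by limma, where 10.6% of 12500 genes were called, and 2 had an unadjusted p under 0.05, Mest and Zrsr1. The Mest log2 odds were lower in the Dom line than in the Cast line (-0.42 ± 0.11, SE, adjusted p = 0.069), and its mean Cast share was 52.01 ± 1.92% (SD, n = 4) and 59.3 ± 3.00% (n = 3). edgeR on the Cast and Dom counts themselves called Mest alone of the 9 (-0.47 ± 0.11, adjusted p = 0.0025), where 14.4% of genes were called, and over all settings the adjusted p for Mest ranged from 0.0025 to 0.24. The difference in Cast share was -9.23 percentage points within replicates 1 and 2 and -4.84 within replicates 3 and 4. Zrsr1 differed by -0.45 ± 0.17 (limma adjusted p = 0.21) and Commd1 by -0.24 ± 0.11 (adjusted p = 0.27), and the other 6 by at most 0.13 in either direction. Mest was the only gene of the 9 whose lines did not overlap, where 20.5% of all genes tested did not. With the replicate number as a block, again none of the 9 was called, where 6.30% of genes were, with Mest at -0.44 (adjusted p = 0.24) and Zrsr1 at -0.58 (adjusted p = 0.060). Under this block Dom-line replicate 4, which has no partner in the Cast line, does not inform the difference.

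The alleles were also counted on a common scale, as allele-assigned CPM of the whole library. For Mest the Dom copy gave 20.4, 19.9, 11.2 and 11.9 CPM in the Dom line and 14.1, 14.2 and 10.5 CPM in the Cast line. The Cast copy gave 21.3, 19.8, 13.2 and 13.5 CPM and 18.6, 23.7 and 14.8 CPM. Neither copy separated the lines. None of the 9 genes was called between lines by edgeR for Cast-assigned counts, where 14.6% of genes were called, or for Dom-assigned counts, where 4.85% were, and 2 and 3 of them had an unadjusted p under 0.05. With the replicate set as a covariate, the Dom-assigned counts of Mest were called higher in the Dom line (0.37, adjusted p = 0.032) while the Cast-assigned ones were not called (-0.09, adjusted p = 0.68).

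Levels were compared between genes per kilobase of counted length, which includes introns. Peg10 was highest at 12.9 ± 2.01 CPM per kb (SD, n = 7), followed by Mest at 6.96 ± 1.69, Zrsr1 at 3.85 ± 0.56 and Igf2r at 1.47 ± 0.33. The first 4 places in this order had no overlap between Peg10, Mest, Zrsr1 and Igf2r over the libraries. Plagl1 (0.77 ± 0.22), Airn (0.76 ± 0.15), Commd1 (0.69 ± 0.18), Sgce (0.55 ± 0.09) and Grb10 (0.44 ± 0.15) followed, and each of these overlapped with its neighbours in the order, as did Igf2r with Plagl1. The median of all 15186 genes tested was 0.79 CPM per kb. Zrsr1 has no intron, and the intronic part of the counted length of the others was not measured. Airn was counted at about the level of the median gene. In bulk libraries fewer cells that transcribe a gene and less RNA per cell cannot be told apart.

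**Figure D3:**
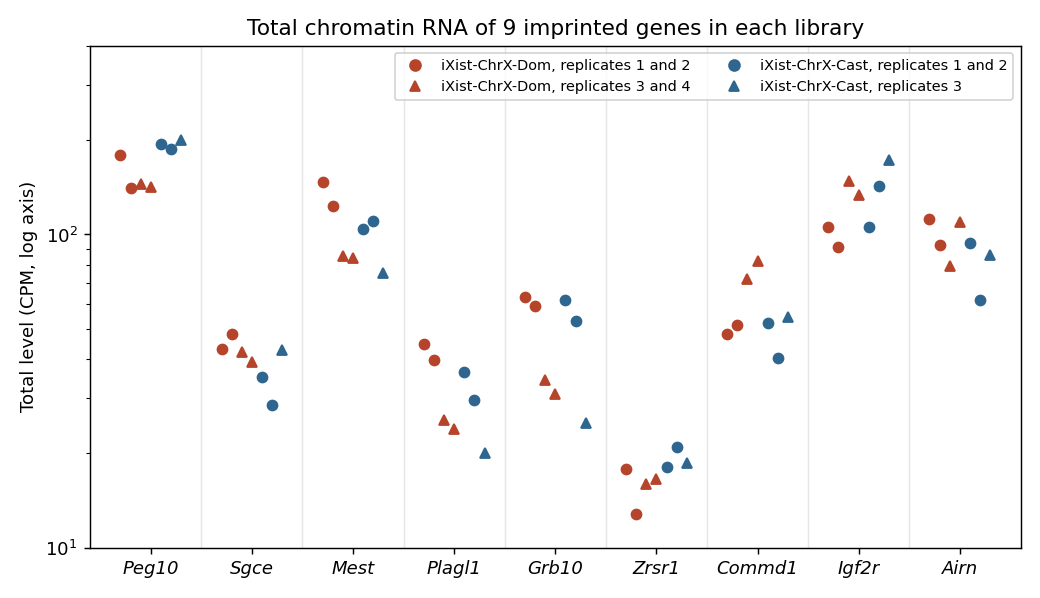
Total level (CPM, log axis) of each gene in each library, by line (colour) and replicate set (shape). The Peg10 and Zrsr1 points of the lines do not overlap, and for Mest, Plagl1, Grb10 and Commd1 the triangles (replicates 3 and 4) lie apart from the circles (replicates 1 and 2).

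Total levels between the lines were compared next. Peg10 showed the strongest evidence, with 179.8, 140.3, 144.7 and 142.0 CPM in the Dom line and 194.9, 187.1 and 200.3 CPM in the Cast line. All Cast-line libraries exceeded all Dom-line libraries, and the log2 difference, Dom line minus Cast line, was -0.36 ± 0.11 (SE, edgeR adjusted p = 0.12). Zrsr1 did not overlap either, at 17.8, 12.8, 16.0 and 16.5 CPM against 18.1, 20.9 and 18.7 CPM, with a difference of -0.29 ± 0.15 (adjusted p = 0.34). Libraries of the lines did not overlap for 16.0% of all genes.

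edgeR called none of the 9 genes between lines, where 2.92% of 15186 genes were called, DESeq2 called none either, where 7.23% were, and Peg10 alone had an unadjusted edgeR p under 0.05. With the replicate number as a block, to which the unpaired Dom-line replicate 4 adds nothing, 2 of the 9 were called, where 11.8% of genes were. Peg10 was lower in the Dom line (-0.33 ± 0.11, adjusted p = 0.047) and Plagl1 higher (0.36 ± 0.12, adjusted p = 0.043). With the replicate set as a covariate 4 were called, where 15.8% of genes were, namely Peg10 (-0.35, adjusted p = 0.018), Plagl1 (0.34, adjusted p = 0.033), Igf2r (-0.32, adjusted p = 0.042) and Mest (0.27, adjusted p = 0.048). In replicates 1 and 2 alone Sgce was called (0.53, adjusted p = 0.024), where 1685 of 15293 genes were. Sgce had 43.1, 48.2, 42.1 and 39.3 CPM in the Dom line and 35.0, 28.5 and 42.6 CPM in the Cast line, so that replicate 3 of the Cast line lay among the Dom-line libraries. The log2 differences of the 9 genes had a median of 0.19 and a median size of 0.29, beside 0.19 for the size over all genes. Each difference was under 0.40 in size on the log2 scale.

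Several of the 9 genes moved with the replicate set more than with the line. Grb10 had 63.2, 59.2, 34.4 and 31.0 CPM in Dom-line replicates 1 to 4 and 61.8, 52.9 and 24.998 CPM in Cast-line replicates 1 to 3. All replicates 1 and 2 lay above all replicates 3 and 4, in either line. Plagl1 showed the same split, at 44.7, 39.7, 25.5 and 24.0 CPM and 36.4, 29.6 and 20.0 CPM, and so did Mest, at 147.3, 122.9, 85.5 and 83.8 CPM and 104.0, 110.3 and 75.5 CPM. Commd1 was split the other way, at 48.1, 51.6, 72.3 and 82.6 CPM and 52.1, 40.4 and 54.6 CPM. The sets did not overlap for these 4 genes of the 9, nor for 29.4% of all 15186 genes. Igf2r tended the same way with an overlap, at 105.8, 90.9, 147.7 and 133.4 CPM and 105.3, 143.0 and 172.6 CPM.

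In a fit of line and replicate set, added after the values had been seen, 5 of the 9 genes were called for the set, where 30.3% of 15186 genes were called, 2 higher in replicates 3 and 4 and 3 lower. In replicates 3 and 4, Grb10 fell by 1.02 ± 0.10 (SE, log2, edgeR adjusted p = 9.6e-06), Plagl1 by 0.75 ± 0.10 (adjusted p = 0.00013) and Mest by 0.61 ± 0.09 (adjusted p = 0.00018). Igf2r rose by 0.50 ± 0.10 (adjusted p = 0.0021) and Commd1 by 0.48 ± 0.11 (adjusted p = 0.0038). In the Dom line alone, where 18.7% of genes were called, 5 were called, with differences of -0.90 for Grb10, -0.76 for Plagl1, -0.67 for Mest, 0.52 for Igf2r and 0.64 for Commd1. Peg10, Sgce, Zrsr1 and Airn were not called for the set. The set coincides with the doubtful d1 descriptions in the Dom line, and its origin is not given in the sources used here.

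Markers of cell state were compared between the sets too, where 30.3% of all 15186 genes were called. The 18 fibroblast markers summed to 197.9 to 245.1 CPM in replicates 1 and 2 and 177.7 to 203.1 CPM in replicates 3 and 4. Of the 17 tested, 3 were called higher in replicates 3 and 4, among them Postn (1.24 ± 0.41) and Prrx1 (0.59 ± 0.18). The 2 called lower were Col5a2 (-0.68 ± 0.09) and Col3a1 (-0.67 ± 0.18). Col5a2 lay at 55.8 to 63.3 CPM in replicates 1 and 2 and 34.5 to 43.4 CPM in replicates 3 and 4, while Postn reached at most 1.17 CPM. The 11 primitive endoderm markers, which label an early extraembryonic lineage, summed to 455.6 to 616.6 CPM and 663.9 to 746.6 CPM in the respective sets. Of the 9 tested, 5 were called higher in replicates 3 and 4 and 1 lower, Col4a2 (0.90 ± 0.12) and Gata4 (0.78 ± 0.16) among those higher. Over all libraries Gata4 lay at only 3.01 to 6.61 CPM, Gata6 at 1.87 to 5.81 CPM and Sox17 at 0.12 to 0.71 CPM. Col4a1 gave far more of the sum, with means of 65.9 and 123.8 CPM in the respective sets. Of 11 pluripotency markers 3 were called for the set, all higher in replicates 3 and 4, and Pou5f1 was higher by 0.50 ± 0.12. Between lines edgeR called 1 pluripotency marker, Tbx3, lower in the Dom line, where 2.92% of all genes were called. DESeq2 called 3 (Klf4, Tbx3 and Tfcp2l1), where 7.23% of genes were. Of the 11, 5 had an unadjusted edgeR p under 0.05, and the median log2 difference was -0.23. edgeR called none of the fibroblast or endoderm markers between lines, of which 0 had an unadjusted p under 0.05 and 0 were called by DESeq2. The part of such cells in the set differences of the imprinted genes was not tested.

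**Figure D4:**
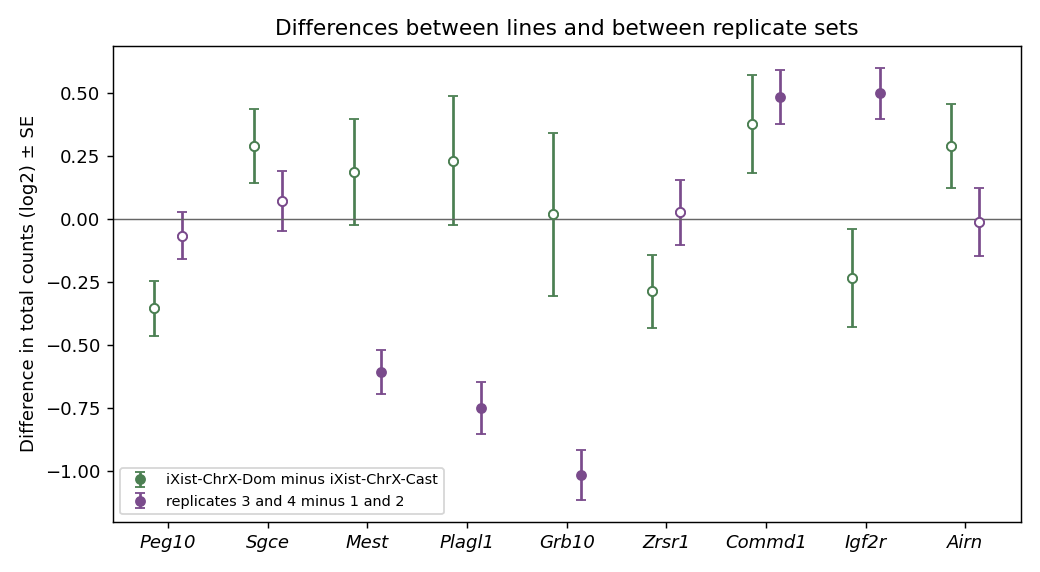
Log2 difference in total counts (± SE from edgeR) of each gene between the lines (green) and between the replicate sets (purple), filled where the adjusted p was under 0.05. Filled points are 5 set differences, from -1.02 for Grb10 to 0.50 for Igf2r, and no line difference.

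The genes around the 9 were examined from a fixed list of 32 neighbours, 30 of which were in the files. Of these, 19 had enough allelic fragments, their Cast shares lay between 29.98 and 77.8% in every library, and none gave 90% of its fragments from a single allele throughout. Among all genes within 2 Mb of the 9, none did so either. Between lines edgeR called 1 of 20 neighbours tested, where 2.92% of all genes were called. It was Cobl beside Grb10, an actin nucleator, which was lower in the Dom line (306.5 to 367.9 CPM against 375.5 to 773.7 CPM, -0.89 ± 0.20, adjusted p = 0.049). DESeq2 called 2, Cobl and Ddc, where 7.23% of genes were. Between replicate sets 7 of 20 were called, where 30.3% of all genes were, and 6 of them were lower in replicates 3 and 4. Slc22a3 (-1.64) near Igf2r, Calcr (-1.36) near Peg10, Cobl (-0.48) and Phactr2 (-0.40) near Plagl1 lay the farthest from 0. Slc22a3 was near the floor, with 1 to 25 fragments a library and means of 0.81 CPM in replicates 1 and 2 and 0.24 CPM in replicates 3 and 4.

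Factors that keep or read imprints were measured as a list of 17 genes, all of them expressed, which includes the zinc finger proteins and DNA methylation enzymes. Between lines 0 of the 17 were called by edgeR or by DESeq2 and 1 had an unadjusted edgeR p under 0.05, with a median log2 difference of -0.01. Between sets 3 were called, where 30.3% of all genes were. Hells, a chromatin remodeller (-0.36 ± 0.09), and Zfp445, an imprint-binding zinc finger protein (-0.25 ± 0.09), were lower in replicates 3 and 4, and Ehmt2, a histone methyltransferase (0.32 ± 0.11), was higher. In the list of 16 growth-signalling genes, 1 of 15 tested was called between lines, where 2.92% of all genes were. It was the insulin receptor Insr, which was higher in the Dom line (0.57 ± 0.10, adjusted p = 0.018, edgeR). DESeq2 called 3 of the 15 (Insr, Grb14 and Igf2bp1), where 7.23% of genes were, and 5 had an unadjusted edgeR p under 0.05. Between sets 4 were called, where 30.3% of all genes were. The imprinted noncoding RNA H19 was higher in replicates 3 and 4 (0.98 ± 0.17), and Irs1 (-0.49 ± 0.12), Grb14 (-0.47 ± 0.12) and Igf2bp3 (-0.31 ± 0.10) were lower.

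The pattern over libraries was compared by the Pearson correlation of log2 CPM over the 7 libraries, given as a description, since libraries of a set share their level for many genes. Grb10, Plagl1 and Mest resembled each other, with r = 0.95 for Grb10 and Plagl1, 0.95 for Mest and Plagl1 and 0.91 for Grb10 and Mest. The 2 genes most like each gene other than Igf2r were Pdhx and Ripk2 for Grb10, Ahr and Leprel1 for Plagl1, Lpl and Rbmxl1 for Mest, Tmcc1 and Mnat1 for Commd1, Tmem261 and Kbtbd12 for Peg10, Pcnxl2 and Tes for Sgce, Zfp84 and Mtnr1a for Zrsr1, and Asic2 and Dlc1 for Airn, and the most like Igf2r was Gmppa, with r from 0.97 to 1.00. Genes with r above 0.9 numbered 634 for Grb10 and 29 for Airn of 15185, the highest and lowest of the 9.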

How the data were processed

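ChrRNA-seq libraries of iXist-ChrX-Dom (n = 4) and iXist-ChrX-Cast (n = 3) were grouped by the line in their labels. Per the paper's methods and the submitters' processing notes, the authors filtered out ribosomal RNA (Bowtie2 2.3.2), aligned what remained with STAR 2.4.2a to an mm10 genome with strain polymorphisms masked, keeping unique alignments, and split fragments by allele with SNPsplit. featureCounts counted fragments by strand over whole transcripts, introns included. A fragment that matched a related copy elsewhere equally well, as can occur for the retrogene Zrsr1, was thus not counted. The deposited count files hold, for each of 22556 genes, whole-number counts of all, Cast-assigned and Dom-assigned fragments. The deposited ratio tables hold the fraction of allelic fragments from the Xist-expressing X chromosome for 246 and 399 X-linked genes, and were used only to check that they equal the allele counts, which all did. The 9 genes, the gene lists and the tests were chosen with earlier results of these data known.

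Total counts were compared with edgeR 4.0.16 (R 4.3.3, filterByExpr, TMM, quasi-likelihood F test, two-sided) as iXist-ChrX-Dom minus iXist-ChrX-Cast, and CPM use the same scaling. For allele-assigned counts the scaled sizes of the whole libraries were kept. Cast shares were tested with limma 3.58.1 on log2((share + 0.01)/(1 - share + 0.01)), minus the median of autosomes other than 1, 5, 8, 12 and 14 in that library. The autosomes kept in this median are those called balanced. Genes of the left-out autosomes stayed in the tests, so percentages of all genes tested for Cast share include them. Each p was adjusted over all genes tested (Benjamini-Hochberg, threshold 0.05). DESeq2 1.42.0 was an alternative for total counts. Deviations of same-numbered libraries of the lines correlated over genes at 0.33, 0.28 and 0.47, so the replicate number was also used as a block. Dom-line replicate 4 has no same-numbered library in the Cast line, so under the block it does not inform the difference between lines. Libraries with other numbers in the same replicate set correlated as much (0.32, 0.38 and 0.51), so the correlation followed the set as much as the number. Those of different sets correlated at -0.27 to -0.50. Deviations were taken from the mean of each line, which in part forces such negative values. Libraries of a line may be technical replicates, and the p-values then measure the spread between these samples only. No 2 libraries of a line matched within sampling noise (chi-square per gene 7.12 to 44.2).

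Tested on simulated data, edgeR found 65.5% of 200 total-count changes of 1 log2 unit among 15026 genes, with 7.09% of calls false. limma found 47.5% of 200 changes in Cast share of 1 log2 odds unit between lines among 12500 genes (5.00% false) and 82.0% at 2 units (4.65% false), and edgeR on allelic counts found 69.0% and 95.0% (4.17 and 6.40% false). Against the autosomal median, limma found 77.0% at 1 unit in iXist-ChrX-Dom (3.75% false) and 69.5% in iXist-ChrX-Cast (8.55% false). For these last rates every unchanged gene was given the same share, whereas shares in the data are spread widely. All simulated libraries were drawn independently, without a difference between replicate sets, so the rates may not hold for the calls reported.

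Genes named beside the 9 were the 2 most correlated with each (1 gene is not reported here), up to 4 called genes per list by size of the log2 difference, and genes within 2 Mb with at least 90% of fragments from an allele in every library. Marker genes of cell types are named as examples, chosen after their values were seen. Alternatives were another tool, other scalings, count filters, offsets and centring, replicates 1 and 2 alone, the replicate set, the block and leaving out each library. The term for the replicate set was added after the data were seen. Figures and tables used Python 3.11.15, numpy 2.4.6, pandas 2.3.3 and matplotlib 3.10.9.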

Additional observations from a re-analysis of the deposited data

Results flagged for a closer look

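In iXist-ChrX-Dom, with 4 libraries, the values of each of the 9 genes were screened for a library far from the rest, by comparing its gap to the nearest library with the whole range. Of 18 value sets, 2 stood out, and chance alone marks about 1 set in 20. Peg10 reached 179.8 CPM in replicate 1, while the other 3 libraries lay between 140.3 and 144.7 CPM. The Cast share of Grb10 was 50.0% in replicate 4, while the others lay between 42.1 and 43.1%.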

How the results depend on the processing

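Number of the 9 genes called. Total counts between lines: 0 in the test reported and under DESeq2, other scalings, no filter and without any 1 library, but 2 with the replicate block, 4 with the replicate set as covariate and 1 in replicates 1 and 2 only. Cast share between lines: 0, and 1 with edgeR on allelic counts. The block took the genes called overall from 443 to 1794 for total counts and from 1324 to 788 for Cast shares, and moved no other call on the 9. Cast-assigned counts gave 0, 2 with the set as covariate and 2 in replicates 1 and 2 only, and Dom-assigned counts 0, 4 and 2. Leaving out a library gave 0 to 1 for both allele counts, the 1 being without iXist-ChrX-Dom replicate 1 (both) or iXist-ChrX-Cast replicate 3 (Cast-assigned).

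Of 598 single-gene values under an alternative, 543 kept their direction and side of the threshold, 15 passed it, 14 lost it and 26 changed sign. The causes were not tested. No value that changed sign was called. By setting they were, for the Cast share between lines, Peg10 at -0.00060 with edgeR, -0.0070 with the set and -0.026 in replicates 1 and 2 only, against the autosomal median in iXist-ChrX-Cast, Grb10 at 0.0039 with edgeR and 0.083 in replicates 1 and 2 and Zrsr1 at -0.15 against 50%, and between sets, Sgce at -0.16 in iXist-ChrX-Dom. Leaving out a library took Grb10 from -0.28 to 0.27 in total counts, Mest from -0.32 to 0.027 in Cast-assigned counts, and, in Cast share between lines, Peg10 from -0.034 to 0.034, Plagl1 from -0.068 to 0.17 and Igf2r from -0.083 to 0.035. It took Grb10 from -0.092 to 0.083 against the autosomal median in iXist-ChrX-Cast and, between sets, Peg10 from -0.13 to 0.049, Sgce from -0.022 to 0.17, Zrsr1 from -0.10 to 0.13 and Airn from -0.12 to 0.12.

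Depth limits Zrsr1 most, with at most 106 allelic fragments a library. With 3 or 4 libraries a line, an uncalled difference is not shown to be absent.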
